A study of Mus musculus with 10 samples.

Results

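Apoptotic cell and lipid uptake genes of macrophages and microglia are described here as a set of 9 genes. They are the receptor tyrosine kinases Mertk and Axl, and the ligands Gas6 (of both) and Pros1 (of Mertk). The others are the integrin subunits Itgb5 and Itgav, the scavenger receptors Cd36 and Msr1, and the endocytic receptor Lrp1. The members were taken by name, without a rule on their values, but were chosen with earlier results of these data known. Each matched 1 of the 52181 entries of the deposited table. Of these entries, 16620 held at least 1 unique molecular identifier (UMI, a tag that counts single RNA molecules). Cells came from optic nerve and retina of Wildtype mice of the 129S1/SvlmJ strain, of both sexes (labelled P56 beside the strain), by droplet single-cell RNA sequencing that reads the 3′ ends of transcripts. Injured optic nerve (libraries 1 and 3) and injured retina (4 samples, held in the table as 2 pools, 1 and 2, and 3 and 4) were collected at 10 weeks of age, 2 weeks after an optic nerve crush at 8 weeks. A crush injures the axons of retinal ganglion cells. Uninjured optic nerve (libraries 2 and 4) and uninjured retina (libraries 5 and 6) had no crush and were collected at the same age. The labels call all cells microglia or macrophages and give neither a sorting gate nor the number of animals per library, so that p-values measure the spread between libraries, which may be partly technical.

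Dying cells expose phosphatidylserine on their surface, and phagocytes recognise it directly or through bridging proteins. GAS6 and protein S (the product of Pros1) are such bridges. GAS6 is a ligand of the TAM receptors MERTK and AXL, and protein S of MERTK. The integrin alpha v beta 5 binds another bridge, MFGE8, and acts beside MERTK when the retinal pigment epithelium takes up photoreceptor outer segments. CD36 and MSR1 take up oxidised or otherwise modified lipoproteins, and LRP1, a large receptor of the LDL receptor family, takes up apolipoprotein E particles, proteases and myelin debris.

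The 1168 cells held 8128628 UMIs, with 85976 to 5424786 UMIs and 28 to 682 cells per optic nerve library, and 56838 to 1420930 UMIs and 12 to 109 cells per retina library. Depth per cell differed between tissues: the median was 1159 and 2176.5 UMIs in injured optic nerve, 2093 and 1518.5 in uninjured optic nerve, 12989 and 3853 in injured retina, and 4250 and 4712 in uninjured retina. Injured optic nerve library 3 held 47.8% (Mertk) to 78.2% (Cd36) of the UMIs of a member. Microglial markers were present in every library, with UMIs in all 12 markers except Fcrls in the retina pool 3 and 4. Against the label, not all cells carried a myeloid profile: T-like cells were 20.2% and 42.1% of the injured retina pools, and oligodendrocyte-like cells were 10.3% and 6.74% of injured and 28.2% and 25% of uninjured optic nerve libraries. Border macrophage-like cells, which carry markers of the macrophages of meninges and vessels such as Mrc1 and F13a1, were 42.7% of the cells of uninjured optic nerve 2, and at most 6.16% of those of any other library. Levels are given as CPM, which is counts per 1000000 UMIs in a library, over all its cells, so that fewer cells of a type and less RNA per cell cannot be told apart in it. Values of myeloid cells alone leave out the clusters named as T-like or oligodendrocyte-like and the endothelial-like cells. They keep cluster 6, an unnamed cluster of 436 cells whose leading genes include Mbp, an oligodendrocyte marker. Tests used log2 fold changes from edgeR for injury in retina, and differences of the mean ln value per library from limma for the other comparisons. A call is an adjusted p under 0.05.

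Mertk, the TAM receptor tied most closely to engulfment by macrophages, had a lower CPM in injured optic nerve than in injured retina. Whether it was called depended on the scale. Its level was 137 and 91.2 CPM in injured optic nerve, 100.5 and 151 CPM in uninjured optic nerve, 239 and 244 CPM in injured retina, and 161 and 158 CPM in uninjured retina. The injured retina pools thus stood above every other library, and the optic nerve groups overlapped each other over all cells. In myeloid cells other than border macrophage-like cells, Mertk was at 162 and 95.6 CPM in injured and 267 and 325 CPM in uninjured optic nerve, and at 259 and 288 CPM in injured and 177 and 158 CPM in uninjured retina. The optic nerve groups did not overlap in those cells, where the mean ln difference for injury was -0.54 ± 0.16 (limma adjusted p = 0.0684), and uninjured optic nerve lay above uninjured retina. On the scale that was tested, the mean ln value of Mertk was 0.33 ± 0.03 in injured optic nerve and 0.78 ± 0.17 in injured retina (SD, n = 2 libraries each). The difference was -0.45 ± 0.14 (SE; limma adjusted p = 0.0414), against a median difference of -0.10 over all 5298 genes tested. The tissues differ in depth per cell and the mean ln value depends on depth: with each cell thinned to 1000 UMIs the difference was -0.10 (limma adjusted p = 0.9998), and on summed UMIs edgeR gave a log2 change of -1.01 ± 0.36 (adjusted p = 0.108). In myeloid cells alone the mean ln difference, without thinning, was -0.78 ± 0.16 (limma adjusted p = 0.00439). The adjusted p from limma was 0.170 without injured optic nerve 1, 0.189 without injured optic nerve 3, 0.308 without the retina pool 1 and 2, 0.0605 without the pool 3 and 4, 0.0578 without uninjured optic nerve 2, 0.0515 without uninjured optic nerve 4, and 0.0654 with a replicate block.

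Within the retina, Mertk did not pass the test for injury, although both injured pools were above both uninjured libraries (edgeR log2 change 0.59 ± 0.30, adjusted p = 0.183). The share of cells with at least 1 Mertk UMI was 68.8% and 47.4% in injured retina and 38.7% and 66.7% in uninjured retina. After thinning to 1000 UMIs per cell it was 18.3% and 15.8% in injured retina and 13.3% and 16.7% in uninjured retina. In the T-like cells 0 of 47 cells had a Mertk UMI at a median depth of 2422 UMIs, which allows a share of up to 6.38%. Mertk is on chromosome 2 at 128698956 to 128802894 on the plus strand (GRCm38, GENCODE M21), and the antisense gene and small RNA gene inside it held 0 UMIs.

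Axl, the TAM receptor that binds GAS6 and is induced by inflammation, did not pass any of the main tests. It stood at 165 and 158 CPM in injured optic nerve, 69.8 and 256 CPM in uninjured optic nerve, 127 and 83.6 CPM in injured retina, and 77.0 and 52.8 CPM in uninjured retina. The 2 uninjured optic nerve libraries bracketed all 6 other libraries but 1, uninjured retina 6, so that no order of the optic nerve groups can be read. Injured retina was above uninjured retina in each pool (edgeR log2 change 0.65 ± 0.47, adjusted p = 0.344), and injured optic nerve was above injured retina in CPM while the mean ln difference was 0.09 ± 0.17 (limma adjusted p = 0.760). Between uninjured tissues the mean ln difference was 0.27 ± 0.17 (limma adjusted p = 0.316), and it was 0.61 (adjusted p = 0.0468) without uninjured optic nerve 2 and -0.06 (adjusted p = 0.870) without uninjured optic nerve 4. Axl lies on chromosome 7 at 25757273 to 25788705 on the minus strand.

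**Figure D1:**
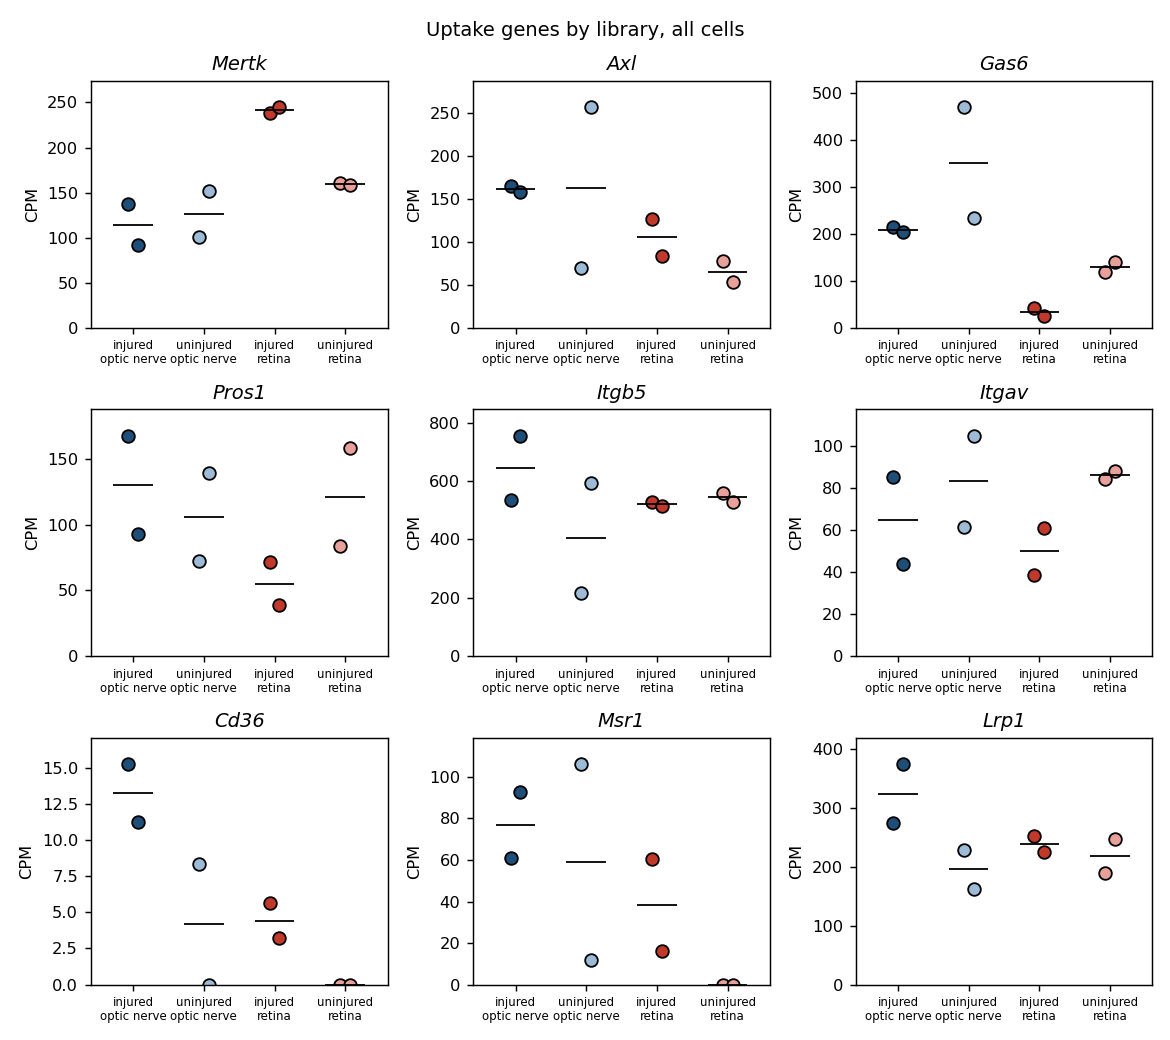
Level of each of the 9 genes in CPM (y axis, linear from 0) in the libraries of 4 groups (x axis). Each point is 1 library and each bar the mean of 2 libraries. Mertk is highest in the injured retina pools (239 and 244 CPM), Gas6 is lowest there (41.5 and 25.7 CPM), and Msr1 and Cd36 are at 0 in uninjured retina.

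Over all cells, the share of Mertk among the UMIs of both receptors was higher in each retina library than in each optic nerve library. Mertk made up 45.5% (95% interval 35.4% to 55.8%) and 36.7% (34.1% to 39.3%) of the Mertk and Axl UMIs in injured optic nerve, and 59.0% (45.7% to 71.4%) and 37.1% (21.5% to 55.1%) in uninjured optic nerve. In injured retina it made up 65.3% (61.0% to 69.4%) and 74.5% (64.9% to 82.6%), and in uninjured retina 67.6% (49.5% to 82.6%) and 75% (42.8% to 94.5%). The intervals are exact Clopper-Pearson intervals and cover counting error only, and these shares were not tested across libraries. The shares also differed by cell type within a library. In uninjured optic nerve 2 the microglia-like cells held 19 Mertk UMIs and 1 Axl UMI, and the border macrophage-like cells 14 and 18. In uninjured optic nerve 4 the microglia-like cells held 13 and 12. The order of the tissues thus did not hold in the microglia-like cells of uninjured optic nerve 2.

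Gas6, the vitamin K-dependent ligand of all TAM receptors, was the only member whose level passed the test for injury in retina. It was at 41.5 and 25.7 CPM in injured retina (59 and 8 UMIs) and at 119 and 141 CPM in uninjured retina (17 and 8 UMIs). Gas6 fell by 1.77 ± 0.43 on the log2 scale (edgeR adjusted p = 0.0166), with group means of 33.6 ± 11.2 CPM in injured retina, against 129.9 ± 15.3 CPM without injury (SD, n = 2 libraries each). T-like cells were 20.2% and 42.1% of the injured pools and 0 of the uninjured retina cells, and held 0 Gas6 UMIs. In myeloid cells alone the log2 change was -1.59 ± 0.41 (edgeR adjusted p = 0.0155). The call was lost without uninjured retina 5, the one with more cells (31, against 12 in uninjured retina 6) (-1.62, edgeR adjusted p = 0.132), with DESeq2 (-1.85, adjusted p = 0.0501), with edgeR on all 8 libraries (-1.78, adjusted p = 0.0632), and with limma on mean ln values (-0.35, adjusted p = 0.0573).

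In optic nerve Gas6 was at 213 and 203 CPM with injury and at 469 and 233 CPM without injury, so that each optic nerve library was above each retina library. The uninjured optic nerve libraries lay above the injured ones, but the mean ln difference of -0.18 ± 0.12 did not pass (limma adjusted p = 0.801). For injured optic nerve against injured retina the call depended on the scale. The mean ln difference was 0.29 ± 0.12 (limma adjusted p = 0.119), whereas edgeR on summed UMIs gave a log2 change of 2.65 ± 0.45 (adjusted p = 0.00349) and DESeq2 gave 2.68 (adjusted p = 0.000106). With limma on log2(CPM + 1) it was 2.63 (adjusted p = 0.0374), and on log2(CPM + 5) 2.49 (adjusted p = 0.0155). The direction was the same in all of these.

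The optic nerve level of Gas6 rested on different cells in each library. In uninjured library 2, 44 border macrophage-like cells held 89.9% of its 168 Gas6 UMIs, and in injured library 1 just 9 such cells held 75.7% of 70. In injured library 3, which gave 1101 Gas6 UMIs, 25 border macrophage-like cells held 3.09%, and the unnamed clusters held 96.1%. In uninjured library 4, 2 endothelial-like cells held 70.0% of 20 UMIs. In myeloid cells other than border macrophage-like cells Gas6 was at 58.3 and 209 CPM in injured optic nerve and at 80.1 and 0 CPM in uninjured optic nerve. The uninjured values rest on few counts. In library 2, 18 microglia-like cells held 4 Gas6 UMIs and 10 unnamed cells held 2. In library 4, 12 microglia-like and 6 unnamed cells held 0, which does not show that the gene is absent. On those cells the mean ln difference between uninjured tissues, optic nerve minus retina, was -0.38 ± 0.12 (limma adjusted p = 0.0467), against 0.12 ± 0.12 (adjusted p = 0.577) on all cells, so the direction turned. The summed level of the 10 border macrophage markers was 1521 and 814 CPM in injured, against 4853 and 791 CPM in uninjured optic nerve, and 55.6 to 231 CPM in retina, where Cd163, Lyve1, Cbr2, Pf4, Folr2 and Clec10a were at 0 in all 4 libraries.

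**Figure D2:**
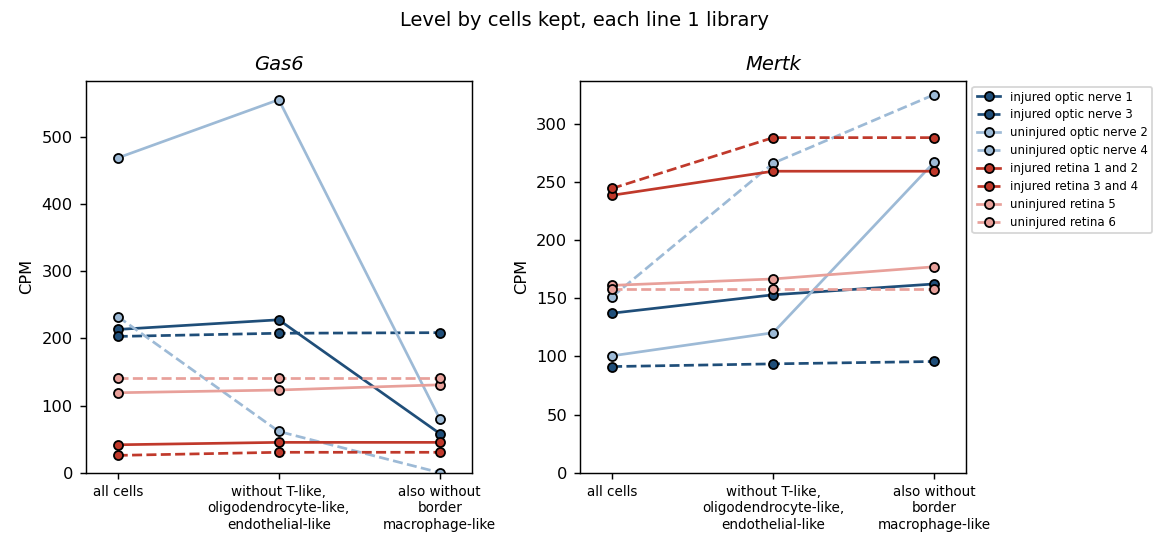
Level of Gas6 and Mertk in CPM (y axis, linear from 0) in all cells, in myeloid cells alone, and in myeloid cells other than border macrophage-like cells (x axis). Each line is 1 library, coloured by group. Gas6 of uninjured optic nerve 2 drops to 80.1 CPM when border macrophage-like cells are left out, while the retina lines stay nearly level.

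Pros1, which encodes the bridging ligand protein S, did not pass any of the main tests. It was at 168 and 93.3 CPM in injured optic nerve, 72.6 and 140 CPM in uninjured optic nerve, 71.8 and 38.6 CPM in injured retina, and 84.0 and 158 CPM in uninjured retina. Both injured retina pools were below both uninjured retina libraries (edgeR log2 change -0.84 ± 0.47, adjusted p = 0.228), and the optic nerve groups overlapped. Gas6 made up 56.0% (46.8% to 64.9%) and 68.5% (66.2% to 70.8%) of the Gas6 and Pros1 UMIs in injured optic nerve, and 86.6% (81.0% to 91.1%) and 62.5% (43.7% to 78.9%) in uninjured optic nerve. It made up 36.6% (29.2% to 44.6%) and 40.0% (19.1% to 63.9%) in injured retina, and 58.6% (38.9% to 76.5%) and 47.1% (23.0% to 72.2%) in uninjured retina. The lowest shares were thus those of the injured retina pools, with intervals that reach those of uninjured retina.

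**Figure D3:**
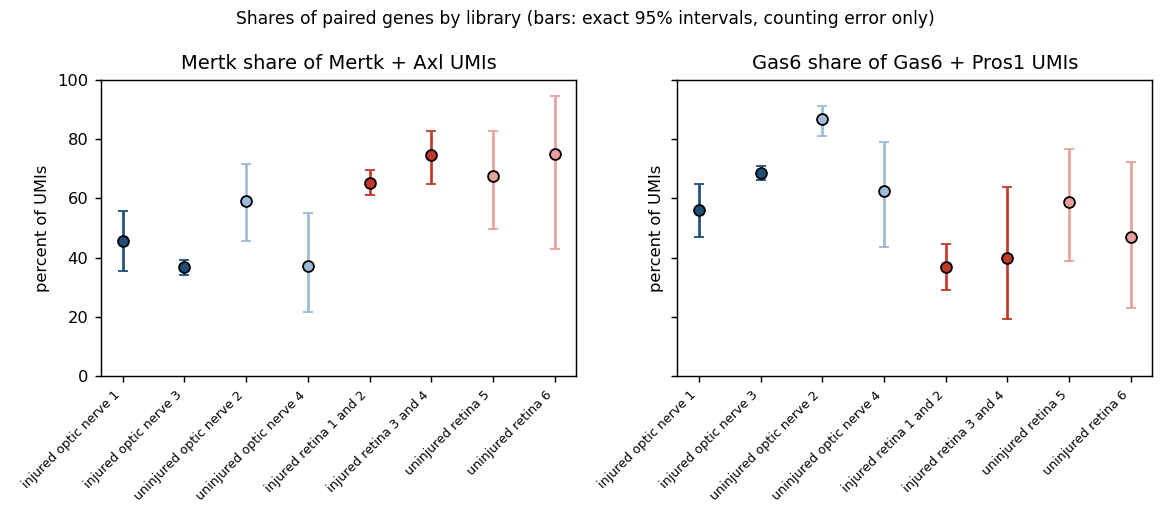
Share of Mertk in the Mertk and Axl UMIs and share of Gas6 in the Gas6 and Pros1 UMIs (y axis, percent) in each library (x axis). Points are shares and bars exact 95% intervals for counting error. Over all cells, the Mertk share is 65.3% to 75% in retina and 36.7% to 59.0% in optic nerve.

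The promoters of Mertk and Gas6 are shown because these were the members that passed a test, Mertk between injured tissues and Gas6 for injury in retina. The stretches are the 250 bases before the RefSeq start of each gene, in GRCm38.p6, 5′ to 3′ on the strand of the gene, chr2:128698665-128698914 on the plus strand for Mertk and chr8:13494536-13494785 on the minus strand for Gas6, and capitals mark GC boxes.
Mertk: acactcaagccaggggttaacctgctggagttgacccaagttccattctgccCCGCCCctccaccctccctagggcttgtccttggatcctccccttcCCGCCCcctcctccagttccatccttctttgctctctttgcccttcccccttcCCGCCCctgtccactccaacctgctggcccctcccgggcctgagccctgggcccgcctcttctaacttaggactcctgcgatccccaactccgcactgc
Gas6: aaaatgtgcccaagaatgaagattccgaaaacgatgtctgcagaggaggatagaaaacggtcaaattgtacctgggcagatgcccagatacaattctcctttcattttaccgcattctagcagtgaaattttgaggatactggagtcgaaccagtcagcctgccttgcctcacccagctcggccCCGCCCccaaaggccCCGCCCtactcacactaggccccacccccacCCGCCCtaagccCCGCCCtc
The GC box was searched as GGGCGG on either strand, and all copies here read CCGCCC on the printed strand. Mertk held 3 copies and Gas6 held 4, all of the Gas6 copies within the last 66 bases before the start. Of the 8 members with a RefSeq promoter, 7 held a GC box, against 32.9% of 27025 promoters of that length. The core of the motif bound by PU.1, a myeloid transcription factor, was searched as GAGGAA on either strand and was in 2 of the 8 (Axl and Itgav), against 23.1% of promoters. These are matches of letters in a window and are not binding sites.

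Itgb5, the beta subunit of the integrin alpha v beta 5, was detected in 62.3% of all cells, more than any other member, and did not pass any of the main tests. It was at 536 and 755 CPM in injured optic nerve, 215 and 593 CPM in uninjured optic nerve, 528 and 515 CPM in injured retina, and 560 and 528 CPM in uninjured retina. The retina libraries lay within a narrow band, and uninjured optic nerve 2 stood below all others. The mean ln difference for injury in optic nerve was 0.17 ± 0.28 (limma adjusted p = 0.974). Between uninjured tissues it was -0.54 ± 0.28 (adjusted p = 0.237), and 0.08 in myeloid cells other than border macrophage-like cells (adjusted p = 0.892). On those cells uninjured optic nerve had 521 and 1100.4 CPM and uninjured retina 585 and 528 CPM. T-like cells held 0 Itgb5 UMIs in 47 cells, border macrophage-like cells held 175 CPM and microglia-like cells 670 CPM.

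Itgav, the alpha v subunit that pairs with several beta subunits, was at 85.3 and 43.9 CPM in injured optic nerve, 61.4 and 105 CPM in uninjured optic nerve, 38.7 and 61.1 CPM in injured retina, and 84.0 and 88.0 CPM in uninjured retina. Injured retina was below uninjured retina in each pool without passing the test (edgeR log2 change -0.90 ± 0.47, adjusted p = 0.191), and the optic nerve groups overlapped. Unlike Itgb5, Itgav had UMIs in 8 of the 47 T-like cells (17.0%, 68.0 CPM) and stood at 132 CPM in oligodendrocyte-like cells, and whether these shares differ beyond depth was not tested. Itgb5 lies on chromosome 16 at 33829665 to 33949338 on the plus strand, and Itgav on chromosome 2 at 83724397 to 83806916 on the plus strand.

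Msr1, the class A scavenger receptor for modified lipoproteins, had UMIs in every group except uninjured retina. It was at 61.0 and 92.9 CPM in injured optic nerve (20 and 504 UMIs), 106 and 11.6 CPM in uninjured optic nerve (38 UMIs and 1 UMI), 60.5 and 16.1 CPM in injured retina (86 and 5 UMIs), and 0 in both uninjured retina libraries. The 0 of 43 uninjured retina cells allows a share of cells with a UMI of up to 6.98%, and 31.2% and 8.77% of cells had a UMI in injured retina. The pools differ from uninjured retina in depth per cell, and after thinning to 1000 UMIs the share was 4.59% and 0 in injured retina, under that limit. Over the group, Msr1 was at least 3.50-fold higher in injured than in uninjured retina, where the bound sets 3 counts in place of 0 for the uninjured group. This rests on the pool 1 and 2, since the bound was 1.07-fold without it and 4.03-fold without the pool 3 and 4. Msr1 did not pass the expression filter for the main test in retina. It was called by edgeR without that filter (adjusted p = 0.00310) and when uninjured retina 6 was left out (adjusted p = 0.0130), but not when uninjured retina 5 was left out (edgeR adjusted p = 0.113) or with edgeR on all 8 libraries (adjusted p = 0.131), and no fold can be read from these fits because 1 group is at 0.

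The same 0 set the comparison of uninjured tissues, where Msr1 was at least 5.84-fold higher in optic nerve than in retina. Without uninjured optic nerve 2 the level was 11.6 CPM, under the 15.03 CPM that 0 UMIs allow in uninjured retina, so that no excess was detectable. The mean ln difference was 0.14 ± 0.08 (limma adjusted p = 0.300), and the call on log2(CPM + 1) had an adjusted p of 0.0463. Of the 39 Msr1 UMIs in uninjured optic nerve, 36 were in the border macrophage-like cells of library 2. No Msr1 UMI was found in the 70 microglia-like cells, all of them from uninjured tissue, which allows a share of up to 4.29%. Between injured tissues the lower optic nerve library (60.95 CPM) and the higher retina pool (60.52 CPM) nearly met, and the mean ln difference was 0.02 ± 0.08 (limma adjusted p = 0.906).

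Cd36, the class B scavenger receptor and fatty acid translocase, was close to the limit of detection, with 78 UMIs in 45 cells (3.85% of cells). It had 15.2 and 11.2 CPM in injured optic nerve (5 and 61 UMIs), 8.37 and 0 CPM in uninjured optic nerve (3 and 0 UMIs), 5.63 and 3.22 CPM in injured retina (8 UMIs and 1 UMI), and 0 in both uninjured retina libraries. The injured groups were above their uninjured counterparts in both tissues, but none of these was tested, since Cd36 passed the filter of neither main fit. A level of 0 in uninjured retina allows up to 15.03 CPM over the group, above the 5.20 CPM of the summed injured retina pools, so a difference was not detectable at this depth. In optic nerve the ratio of injured to uninjured was 1.70 (95% counting interval 0.56 to 8.45).

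Lrp1, the large endocytic receptor, was at 274 and 373 CPM in injured optic nerve, 229 and 163 CPM in uninjured optic nerve, 252 and 225 CPM in injured retina, and 189 and 246 CPM in uninjured retina. Both injured optic nerve libraries were above both uninjured ones and above both injured retina pools, yet no main test passed, and the mean ln difference between injured tissues was 0.00 ± 0.19 (limma adjusted p = 0.997). In myeloid cells alone it was -0.32 (limma adjusted p = 0.262), so its sign is not settled by these data. Lrp1 is on chromosome 10 at 127538161 to 127621148 on the minus strand, with an antisense gene that held 1 UMI in all. Its level was 244 CPM in oligodendrocyte-like, 237 CPM in border macrophage-like and 255 CPM in microglia-like cells over all libraries, while in uninjured optic nerve 2 alone it was 347 CPM in microglia-like and 197 CPM in border macrophage-like cells.

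Read by comparison, few members changed. For injury in retina 7 of the 9 were tested and 1 fell (Gas6), against 19.7% of the 3312 genes tested that passed in either direction, 9.99% that rose and 9.72% that fell, and the median log2 change of the tested members was -0.06 against 0.07 over all genes. In CPM, among the 8 members detected in 10% of cells or more (all but Cd36), 3 (Mertk, Axl, Msr1) were higher in both injured pools than in both uninjured libraries, against 32.5% of 5298 genes. Another 3 (Gas6, Pros1, Itgav) were lower in both, against 24.5% of genes. For injury in optic nerve 0 of 8 tested members passed with limma, 0 had an unadjusted p under 0.05, and 0 passed with edgeR or DESeq2, against 0.566% of 5298 genes (0.359% higher and 0.208% lower). Between injured tissues 1 of 8 passed (Mertk, lower in optic nerve), against 13.5% of genes, with 12.7% lower and 0.755% higher in optic nerve (673 and 40 genes with limma, against 190 lower and 193 higher with edgeR). In CPM, 6 of the 8 members (Axl, Gas6, Pros1, Itgb5, Msr1, Lrp1) were higher in both injured optic nerve libraries than in both injured retina pools, against 23.5% of genes, and 1 (Mertk) was lower, against 30.9%. For Msr1 these ranges nearly met, as given above. Between uninjured tissues 0 of 8 passed with limma, edgeR or DESeq2, with 0 at an unadjusted p under 0.05 in limma, against 10.0% of genes (94 higher and 437 lower with limma, 56 and 64 with edgeR, or 1.77% and 8.25% with limma).

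The injury effect was also compared between tissues, as optic nerve minus retina. No member passed with limma (0 of 8, with 0 at an unadjusted p under 0.05, and 0 with edgeR or DESeq2), against 5.61% of genes (1.70% positive and 3.91% negative). The value was -0.24 ± 0.20 for Mertk (limma adjusted p = 0.4997) and 0.17 ± 0.17 for Gas6 (adjusted p = 0.578). In myeloid cells other than border macrophage-like cells it was -0.96 ± 0.23 for Mertk (limma adjusted p = 0.0144) and 0.59 ± 0.17 for Gas6 (adjusted p = 0.0465). For Gas6 the uninjured optic nerve side rests on the few UMIs given above. For Mertk that side also rests on few UMIs. In library 2, 18 microglia-like cells held 19 Mertk UMIs and 10 unnamed cells held 1. In library 4, 12 microglia-like cells held 13 and 6 unnamed cells held 0. The cells kept include the shallow cluster 6, with 41.2 CPM of Mertk over all libraries. The part of cell mix and depth in these values was not tested. The comparisons share libraries: the interaction uses all 8, and each group enters 3 of the 5 comparisons.

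Members differed in which cells carried them. Clusters were built without the members, and the levels below pool cells over libraries. Microglia-like cells (70 cells of uninjured tissue) had 255 CPM of Mertk, 670 CPM of Itgb5 and 116 CPM of Gas6. Border macrophage-like cells (80 cells) had 58.2 CPM of Mertk, 175 CPM of Itgb5, 520 CPM of Gas6, 129 CPM of Msr1 and 119 CPM of Axl, against 99.7 CPM of Axl in microglia-like cells. Of these 80 cells 57.5% had a Gas6 UMI (95% interval 45.9% to 68.5%) and 23.8% a Mertk UMI (14.9% to 34.6%), at a median depth of 3288 UMIs. The levels of Gas6 in border macrophage-like cells of single libraries were 984 and 183 CPM in injured optic nerve 1 and 3 and 727 CPM in uninjured optic nerve 2. In injured optic nerve 3 the unnamed clusters 3 and 2 had 214 and 213 CPM, so that border macrophage-like cells were not the highest there.

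The unnamed clusters divided by tissue. Cluster 1, with the heat-shock genes Hsph1 and Hspa1b among its leading genes, held 117 cells, all from the injured retina pools, and had 265 CPM of Mertk and 41.6 CPM of Gas6. Cluster 3, led by Gpnmb, Apoc1 and Lyz2, held 203 deep cells (median 20943 UMIs), mostly of injured optic nerve 3, with 90.5 CPM of Mertk, 210 CPM of Gas6 and 97.4 CPM of Msr1. Cluster 2, led by Gbp5 and Tnfaip2, held 109 cells, mostly of injured optic nerve, and had 302 CPM of Mertk, 274 CPM of Axl, 1128 CPM of Itgb5 and 882 CPM of Lrp1. Within libraries, Mertk in this cluster was at 357 and 290 CPM in injured optic nerve 1 and 3, while the microglia-like cells of uninjured optic nerve 2 and 4 had 388 and 484 CPM, and those of uninjured retina 5 and 6 had 195 and 158 CPM. Cluster 6, led by Mbp, S100b and Cxcl13 (436 shallow cells, median 1017 UMIs), had 41.2 CPM of Mertk and 159 CPM of Axl. Clusters of 1 tissue or library cannot be told apart from that library, and none of these levels was tested.

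**Figure D4:**
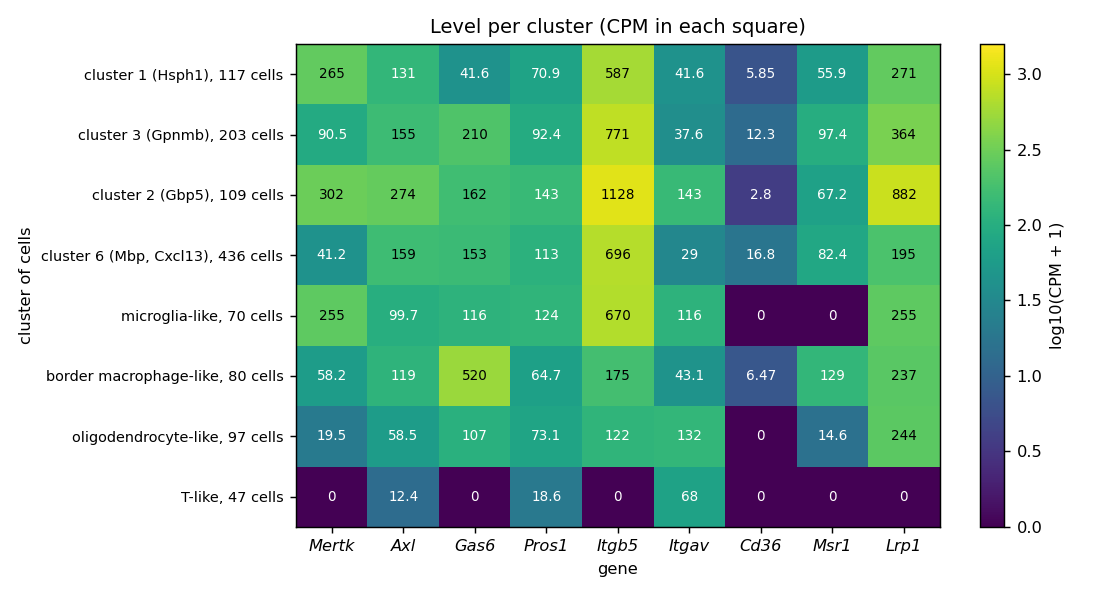
Level of each of the 9 genes (x axis) in 8 clusters of cells (y axis, named by marker or leading genes, with the number of cells). Colour is log10(CPM + 1) and the number in a square is CPM. T-like cells are at 0 for Mertk, Gas6, Itgb5, Cd36, Msr1 and Lrp1, and border macrophage-like cells have 520 CPM of Gas6 over all libraries.

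Single cells carried several members at once where they were deep. The median number of members with a UMI per cell was 1 and 3 in injured optic nerve, 2 and 2 in uninjured optic nerve, 5 and 2 in injured retina, and 3 and 4 in uninjured retina, and a single library, injured optic nerve 3, had cells with all 9. In the 191 cells of cluster 3 from that library, 135 had UMIs of both Mertk and Axl, and 119 of both Mertk and the ligand Gas6. Of all 1168 cells 57.7% of the 452 with Axl also had Mertk, against 16.9% of cells without Axl. The cells that had both were deep (median 17533 UMIs), and the part of depth in this was not tested.

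Other genes of the pathway were followed from lists of named genes. Their values cover all cells unless myeloid cells alone are named. Of 18 other TAM and phosphatidylserine receptors and bridging proteins 7 were tested in retina, where Cd300lf (a phosphatidylserine and lipid receptor of myeloid cells) rose and Trem2 (a lipid receptor of microglia) and Stab1 (a scavenger receptor that binds phosphatidylserine) fell. Cd300lf had 223 and 81 UMIs in injured retina and 1 UMI in each uninjured retina library, a ratio of 17.5 (95% counting interval 4.81 to 145). Trem2 was at 685 and 701 CPM in injured, against 1807 and 2129 CPM in uninjured retina (log2 change -1.47 ± 0.26, edgeR adjusted p = 0.00283), and Stab1 at 34.5 and 41.8 CPM in injured, against 77.0 and 141 CPM in uninjured retina (-1.41 ± 0.45, adjusted p = 0.0464). In myeloid cells alone Stab1 did not pass (-1.08 ± 0.47, edgeR adjusted p = 0.117). In optic nerve 1 of 8 tested rose with injury, C1qa, a subunit of the complement bridge C1q (mean ln difference 0.98 ± 0.20, limma adjusted p = 0.0335). The median change of the list was -0.48 (log2) in retina and 0.22 (ln) in optic nerve, against 0.07 and -0.02 over all genes.

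The injury effect on this list, over all cells, differed between tissues for 3 of 8 genes. Cell mix also differed: T-like cells were 20.2% and 42.1% of injured and 0 of uninjured retina cells. Oligodendrocyte-like cells were 10.3% and 6.74% of injured and 28.2% and 25% of uninjured optic nerve libraries. The part of cell mix in these differences was not tested. The difference, optic nerve minus retina, was 2.48 ± 0.29 for C1qa (limma adjusted p = 0.000111), 2.41 ± 0.42 for Trem2 (adjusted p = 0.00387) and -0.61 ± 0.11 for Cd300lf (adjusted p = 0.00498). Between injured tissues C1qa and Lgals3, a lectin that MERTK binds, were higher in optic nerve and Cd300lf was lower, and between uninjured tissues C1qa, Trem2 and Havcr2, a phosphatidylserine receptor, were lower in optic nerve. Tyro3, the remaining TAM receptor, had 11 and 15 UMIs in injured optic nerve, 10 UMIs and 1 UMI in uninjured optic nerve, and 0 in retina, and was not tested.

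Of 11 other scavenger receptors 4 were tested in each comparison. In retina Cd68, a lysosomal glycoprotein of phagocytes, fell (292 and 206 CPM in injured, against 665 and 669 CPM in uninjured retina, log2 change -1.38 ± 0.28, edgeR adjusted p = 0.00640). Colec12, a collectin that binds modified lipoproteins, rose with 109 and 37 UMIs in injured retina and 0 in both uninjured libraries, and was at least 5.61-fold higher by the bound of 3 counts. In optic nerve 0 of 4 passed with injury. Cd68 had a mean ln difference of 0.72 ± 0.23 there (limma adjusted p = 0.242), and its injury effect over all cells differed between tissues by 1.81 ± 0.32 (adjusted p = 0.00407). The part of cell mix in this was not tested.

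Of 16 genes of the LDL receptor family and its partners 8 were tested in retina, where Sorl1, a sorting receptor, rose (78.8 and 74.0 CPM in injured, against 21.01 and 0 CPM in uninjured retina, edgeR adjusted p = 0.0410, with a ratio of 5.19 and a counting interval of 1.74 to 25.5). In optic nerve 1 of 10 rose, Apoe, the lipoprotein ligand of Lrp1, which was at 59364 and 94133 CPM in injured, against 20826 and 15086 CPM in uninjured optic nerve (mean ln difference 3.09 ± 0.38, limma adjusted p = 0.000507). On the mean ln scale, which depends on depth, Apoe was also higher in optic nerve than in retina. The difference was 2.63 ± 0.38 between injured tissues (limma adjusted p = 0.000450) and 1.57 ± 0.38 between uninjured tissues (limma adjusted p = 0.0134). In CPM, the summed level of 6 Müller glia markers, Apoe among them, overlapped between uninjured tissues. It was 22004 and 16458 CPM in uninjured optic nerve and 20296 and 7161 CPM in uninjured retina. The injury effect on Sorl1 differed between tissues by -0.52 ± 0.11 (limma adjusted p = 0.0152).

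Of 10 integrin partners and relatives 5 were tested in retina. Itga4 (78.1 and 90.1 CPM in injured, against 14.01 and 17.6 CPM in uninjured retina) and Itgb1 (207 and 222 CPM in injured, against 77.0 and 123 CPM in uninjured retina) rose, and Itgam, the alpha subunit of complement receptor 3, fell (153 and 174 CPM in injured, against 434 and 545 CPM in uninjured retina), with edgeR adjusted p of 0.0233, 0.0317 and 0.00234. T-like cells moved with injury, as given for Gas6. In myeloid cells alone Itgam still fell (log2 change -1.36 ± 0.27, edgeR adjusted p = 0.00405), Itgb1 did not pass (1.04 ± 0.40, adjusted p = 0.0812), and Itga4 was not tested because it did not pass the filter on low counts. In optic nerve 1 of 7 rose, Itgax, the alpha subunit of complement receptor 4, with 45 and 963 UMIs in injured and 2 and 0 UMIs in uninjured optic nerve, a ratio of 38.9 (counting interval 10.8 to 322), and a limma adjusted p of 0.0116. Itgax had no UMI in uninjured retina, and 51.4 and 41.8 CPM in injured retina.

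Of 16 lipid-load response genes 9 were tested in retina, where the cholesterol exporters Abca1 and Abcg1 rose. Abca1 was at 139 and 212 CPM in injured, against 42.0 and 35.2 CPM in uninjured retina (log2 change 2.07 ± 0.48, edgeR adjusted p = 0.0135). Abcg1 had 76 and 17 UMIs in injured and 1 and 0 UMIs in uninjured retina (adjusted p = 0.0240, ratio 10.7 with a counting interval of 1.88 to 428). In optic nerve 1 of 13 rose, Lpl, the lipoprotein lipase, at 430 and 919 CPM in injured, against 39.1 and 34.9 CPM in uninjured optic nerve (mean ln difference 0.80 ± 0.17, limma adjusted p = 0.0335). The list had a median of 0.32 (log2) in retina and 0.22 (ln) in optic nerve. Lpl was also higher in injured optic nerve than in injured retina (0.74 ± 0.17, adjusted p = 0.00937).

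Of 16 genes of the cytoplasmic engulfment machinery 7 were tested in retina and 1 rose, Dock2, a Rac activator of leukocytes (194 and 402 CPM in injured, against 63.0 and 158 CPM in uninjured retina, edgeR adjusted p = 0.0397). T-like cells were 20.2% and 42.1% of the injured pools and 0 of the uninjured retina cells, and in myeloid cells alone Dock2 did not pass (log2 change 0.77 ± 0.42, edgeR adjusted p = 0.208). In optic nerve 0 of 10 passed with limma, and Elmo1 had the smallest p (-0.45 ± 0.16, adjusted p = 0.383). Between injured tissues Dock2 (-0.84 ± 0.19, limma adjusted p = 0.00950) and Elmo1 (-0.60 ± 0.16, adjusted p = 0.0241) were lower in optic nerve. These are mean ln differences over all cells, which depend on depth. T-like cells were 0 and 0.147% of the injured optic nerve libraries, far fewer than in the injured retina pools. The part of depth and cell mix in these differences was not tested. Of 6 shedding proteases of MERTK and AXL and their relatives 3 were tested in retina and 4 elsewhere, and 0 passed in any comparison. Adam17, the protease that cleaves MERTK, was at 101 and 97.9 CPM in injured optic nerve, 89.3 and 105 CPM in uninjured optic nerve, 67.6 and 90.1 CPM in injured retina, and 49.0 and 106 CPM in uninjured retina.

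The genes whose mean ln values over the 8 libraries followed a member most closely, out of 5238 candidates, had Pearson correlations of 0.90 to 0.98, which are given as a description because the libraries share depth and cell mix. They were Prpf38a, Pcf11 and H2-Oa for Mertk, Plxdc1, Ap1m1 and Slc35f6 for Axl, and Rgl2, Emp3 and Cd151 for Gas6. They were Isyna1, Sord and Slc25a11 for Pros1, Rasa4, Pon3 and Ctsh for Itgb5, and Cisd1, Tial1 and Mrpl34 for Itgav. For Msr1 they were Slc25a28, Aplp2 and Ndufs1, and for Lrp1 Dhrs7, Lima1 and Capns1.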

How the data were processed

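Per the labels' design text, cells were captured with a 10x Genomics kit and reads aligned to mm10, and the submitters' processing notes name Cell Ranger 1.3, bcl2fastq 2.17.1.14 and Seurat 4.0.3. The authors deposited UMI counts for 209 retina cells. For 959 optic nerve cells they deposited natural log (ln) values of 1 plus 10000 times the UMI count over the cell total, from which whole UMIs were recovered for all 1374534 values above 0 within 0.01. Uninjured retina held no UMI in the last 24183 entries, so it may have been counted against another gene annotation. Tests therefore used the first 27998 entries, which hold all members. Whether such a difference also shifted counts within those entries was not tested. It cannot be told apart from group in any comparison with uninjured retina, including levels of 0 there. UMIs summed per library were tested for injury in retina with edgeR 4.0.16 (quasi-likelihood, TMM, filterByExpr). The other comparisons used limma 3.58.1 (trend) on mean ln values of all 8 libraries, for the genes detected in 10% of cells or more. Adjustment was by Benjamini-Hochberg over all genes tested. DESeq2 1.42.0 and other scales were alternatives. Fits were also run on simulated data with large changes and no differences in cell mix, which does not measure their error on these data.

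Cells were clustered with scanpy 1.11.5 without the members (2000 variable genes, 30 components, 15 neighbours, resolution 0.5) and named where 2 markers were among 10 and 3 among 50 leading genes. First, 9 cells that had 5 or more of 14 endothelial markers were set aside, a choice made after seeing the data. No doublet caller was run, and 2 barcodes were each shared by cells of injured optic nerve libraries 1 and 3. The members and lists were chosen with earlier results of these data known. All 9 members are named; from each list at most 4 called genes with the smallest p are named per comparison, or at most 2 as values where none was called. Same-numbered injured libraries of the tissues deviated from their group means with a correlation of -0.18 over 5298 genes. With 2 libraries per group, and depth per cell that moved in opposite directions in the tissues, this cannot show whether the numbers pair them.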

Additional observations from a re-analysis of the deposited data

How the results depend on the processing

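Counts of genes that passed moved with the processing. For injury in retina 341 genes passed with DESeq2 and 260 with edgeR on all 8 libraries, against 653. For injury in optic nerve (30 genes) the count was 3 with cells thinned to 1000 UMIs, 71 with DESeq2, 53 with edgeR, 55 with edgeR and DESeq2 size factors, 6 on log2(CPM + 1), 16 on log2(CPM + 5), 1 with no filter, 46 in myeloid cells alone and 161 in those other than border macrophage-like cells. For the interaction (297 genes) it was 27 thinned, 112 with DESeq2, 72 with edgeR, 69 with DESeq2 size factors, 56 and 90 on the log2 scales, and 28 with no filter. Between injured tissues (713 genes) it was 21 thinned, 272 with DESeq2, 383 with edgeR, 380 with DESeq2 size factors, 38 and 64 on the log2 scales, and 440 with no filter. Between uninjured tissues (531 genes) it was 133 thinned, 152, 120 and 124 with those count tests, and 207 and 307 on the log2 scales.

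Leaving out 1 library at a time gave 415 to 699 genes for injury in retina (428 without pool 1 and 2, 415 without pool 3 and 4), 7 to 67 in optic nerve, 86 to 541 for the interaction (157 and 106 without those pools), 143 to 1085 between injured tissues (197 and 290) and 227 to 907 between uninjured tissues. With injured libraries paired by number as a replicate block, 496 genes passed between injured tissues, and Mertk was not called (adjusted p = 0.0654 with limma). With the numbers crossed, chosen after seeing the data, 658 genes passed.

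Of 351 other alternatives over the 39 tests of members, 281 kept the direction and the side of the threshold, 11 lost a call, 8 gained one and 51 changed sign, 50 of them called in neither. Of 284 that left out a library, 244 kept both, 7 lost a call, 1 gained one and 32 changed sign while called in neither. The sign changes among the tests printed above were as follows. In myeloid cells alone Itgb5 was -0.0419 for injury in optic nerve, and between injured tissues Axl was -0.0419, Msr1 -0.0279 and Lrp1 -0.32. In those other than border macrophage-like cells Gas6 was 0.27 and Itgb5 -0.34 for injury in optic nerve, Axl -0.0317, Msr1 -0.0404 and Lrp1 -0.36 between injured tissues, and Gas6 -0.38 and Itgb5 0.0754 between uninjured tissues. Without injured optic nerve 3 Msr1 was -0.0758 between injured tissues. Without retina pool 3 and 4 Axl was -0.0551, Msr1 -0.0797 and Lrp1 -0.14 between injured tissues. Leaving out a library gave -0.27 to 0.60 for Itgb5 in optic nerve, -0.0551 to 0.24 for Axl, -0.0797 to 0.12 for Msr1 and -0.20 to 0.20 for Lrp1 between injured tissues, and -0.0649 to 0.61 for Axl and -0.0326 to 0.27 for Gas6 between uninjured tissues. For all of these the cause was not tested. Thinning moved 26 of 36 group means of the share of cells with a UMI by over 1 SD, and leaving out other cells moved 6 of 36 levels. Uninjured retina, with 43 cells, and Cd36, with 78 UMIs, limit what can be detected.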

Other observations

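The highest count in a single cell was 51 UMIs for Gas6 and 71 UMIs for Itgb5, while 149 of the 360 cells with Gas6 and 196 of the 728 cells with Itgb5 had 1 UMI.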
